A study of Mus musculus with 4 samples.

Results

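The genes described are Crtam, the 4 Cadm genes (Cadm1 to Cadm4) and the 4 nectin genes (Nectin1 to Nectin4), 9 of the 25694 genes tested. They were followed through every probe whose RefSeq accession maps to 1 of the 9 genes, which gave 14 of 39429 probes on the array. The group was formed around Crtam, which was selected on its low log2 ratio on all 4 arrays, so the ratios of Crtam are given as a description with no test. All 14 probes had a ratio on all 4 arrays, and 10 of them were well above background in both dyes on every array.

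RNA of mouse ear tissue was compared on 4 two-colour arrays of 1 slide. The study used 9 male BALB/c mice of 6 to 10 weeks. Exposure was by inhalation of diesel exhaust particles (DEP), 1 h daily over 5 days, and the mice were killed on day 14. The tissue was the part of the temporal bone that holds the middle ear, and neither the number of mice behind an extract nor the handling of the control mice is stated in the sources used here. On each array, the extract labelled as the DEP ear carried the red dye Cy5 and the extract labelled as the control ear carried the green dye Cy3. The dyes were not swapped, so an effect of the dye and an effect of the group cannot be told apart. The labels do not say that the 4 extracts of a group came from separate animals, and the spread between arrays may be technical in part.

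CRTAM is a surface protein of the immunoglobulin superfamily that appears on activated CD8+ T cells and NK cells, and it is also made by neurons of the cerebellum. Its ligand is CADM1, a member of the CADM (SynCAM, nectin-like) family, whose proteins bind one another across the gap between neighbouring cells at synapses, along axons wrapped by Schwann cells and, for CADM1, between epithelial cells. Nectins are related molecules that bind each other between cells, hold the scaffold protein afadin inside the cell and help to build the adherens junctions of epithelium. Some of them also bind receptors of T cells and NK cells.

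Promoter sequence is shown for a pair of Cadm genes with low ratios, Cadm3 and Cadm4, and for a pair of nectin genes that differ in base composition, Nectin2 and Nectin4. The RefSeq promoter table of build GRCm38.p6 matched 6 of the 9 genes, and Crtam, Cadm1 and Nectin1 were not among them. Each sequence is the 250 bases before the gene's start, read 5′ to 3′ on the strand of the gene, and capitals mark GGGCGG or its reverse complement, the core of a GC box. Cadm3 lies on the minus strand at chr1:173367696-173367945, Cadm4 on the plus strand at chr7:24481773-24482022, Nectin2 on the minus strand at chr7:19749574-19749823 and Nectin4 on the plus strand at chr1:171369923-171370172.
Cadm3: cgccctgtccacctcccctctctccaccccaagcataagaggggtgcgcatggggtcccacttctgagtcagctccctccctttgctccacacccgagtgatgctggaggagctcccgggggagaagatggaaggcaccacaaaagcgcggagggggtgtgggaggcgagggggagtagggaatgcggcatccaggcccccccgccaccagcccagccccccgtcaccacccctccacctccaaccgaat
Cadm4: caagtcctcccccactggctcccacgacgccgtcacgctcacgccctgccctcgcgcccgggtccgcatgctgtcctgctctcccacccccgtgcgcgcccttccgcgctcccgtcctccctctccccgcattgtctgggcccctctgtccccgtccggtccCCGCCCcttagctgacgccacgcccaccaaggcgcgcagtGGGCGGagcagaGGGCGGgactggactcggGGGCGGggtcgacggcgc
Nectin2: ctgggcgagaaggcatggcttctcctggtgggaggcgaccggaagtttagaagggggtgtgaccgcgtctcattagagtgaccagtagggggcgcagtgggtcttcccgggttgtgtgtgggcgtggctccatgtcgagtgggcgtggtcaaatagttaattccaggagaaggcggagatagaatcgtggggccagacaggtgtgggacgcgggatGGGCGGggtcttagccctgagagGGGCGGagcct
Nectin4: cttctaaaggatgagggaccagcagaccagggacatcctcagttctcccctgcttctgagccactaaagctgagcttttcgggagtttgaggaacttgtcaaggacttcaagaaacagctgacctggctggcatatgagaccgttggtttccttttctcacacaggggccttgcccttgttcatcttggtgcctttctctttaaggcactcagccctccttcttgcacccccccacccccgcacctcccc

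GGGCGG was present on either strand in 32.7% of the 32851 promoter windows of this length. The Cadm4 window held it 4 times, the Nectin2 window 2 times and the Cadm2 and Nectin3 windows 1 and 5 times, whereas the Cadm3 and Nectin4 windows held none. TATAAA, the core of a TATA box, was searched on both strands, shares no letters with GGGCGG, and was in none of the 6 windows, against 12.4% of all windows. CACCTG, a form of the E box, searched likewise, was found in 1 window, that of Nectin2, against 17.2% of all windows. The G and C content was 75.2% in Cadm4, 73.2% in Nectin3, 66.8% in Cadm3, 62.0% in Nectin2, 60.8% in Cadm2 and 54.4% in Nectin4, against a median of 52.4% over all windows.

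Crtam and the Cadm genes had, on average, lower signal in the channel labelled DEP than in the channel labelled control. All 4 Cadm genes had a mean log2 ratio (Cy5 over Cy3) below 0, except that Cadm1 stood at 0.01 when arrays were centred on their median after normexp background correction, and 3 of the 4 nectins had a mean above 0, to which Nectin1 was added at 0.17 under that setting. The direction follows the dye labels. The study's text gives the opposite direction for most of the genes in its pathway tables, so the assignment of the channels to the groups is not settled. With the channels exchanged, every sign below turns, and the signals called control below would be those of the DEP ears and the reverse. After Benjamini-Hochberg adjustment, limma called no gene of the 25694 (0.0%; 4799 had an unadjusted p under 0.05), and 0 of the 8 genes other than Crtam; ordinary least squares also called 0 genes. Of these 8 genes, 2, Cadm3 and Cadm4, had a limma unadjusted p under 0.05 by their brightest probe, beside 18.7% of all genes. The dimmer Cadm2 probes had limma unadjusted p of 0.016 and 0.015.

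A mean ratio 2-fold or more lower in Cy5 was found for 4 of the 9 genes, Crtam, Cadm2, Cadm3 and Cadm4, against 4.37% of all genes. Crtam is among the 4 by the way the group was chosen, and of the other 8 genes 3 were past 2-fold. Among them is Cadm2, whose brightest probe had on every array a channel that is not well above background. With normexp and the median centring, which also moved the median of all genes to 0.11, Crtam stayed past 2-fold at -1.90 and 0 of the other 8 did, against 0.856% of all genes; Cadm2 stood at -0.84, Cadm3 at -0.93 and Cadm4 at -0.85. No gene of the group was 2-fold or more higher, against 2.37% of all genes, although Nectin4 reached a mean of 1.24 when array 4 was left out. Crtam and Cadm4 were lower in Cy5 on every array, against 11.5% of the 24276 genes with 4 ratios. Crtam was selected for this, and Cadm4 was 1 of the other 8 genes, a share near that of all genes. The median log2 ratio of the 9 genes was -0.28, that of the Cadm genes -1.27 and that of the nectins 0.27, beside 0.03 over all genes. The median of the 9 genes was 0.01 with normexp and median centring and -0.67 without array 1.

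**Figure D1:**
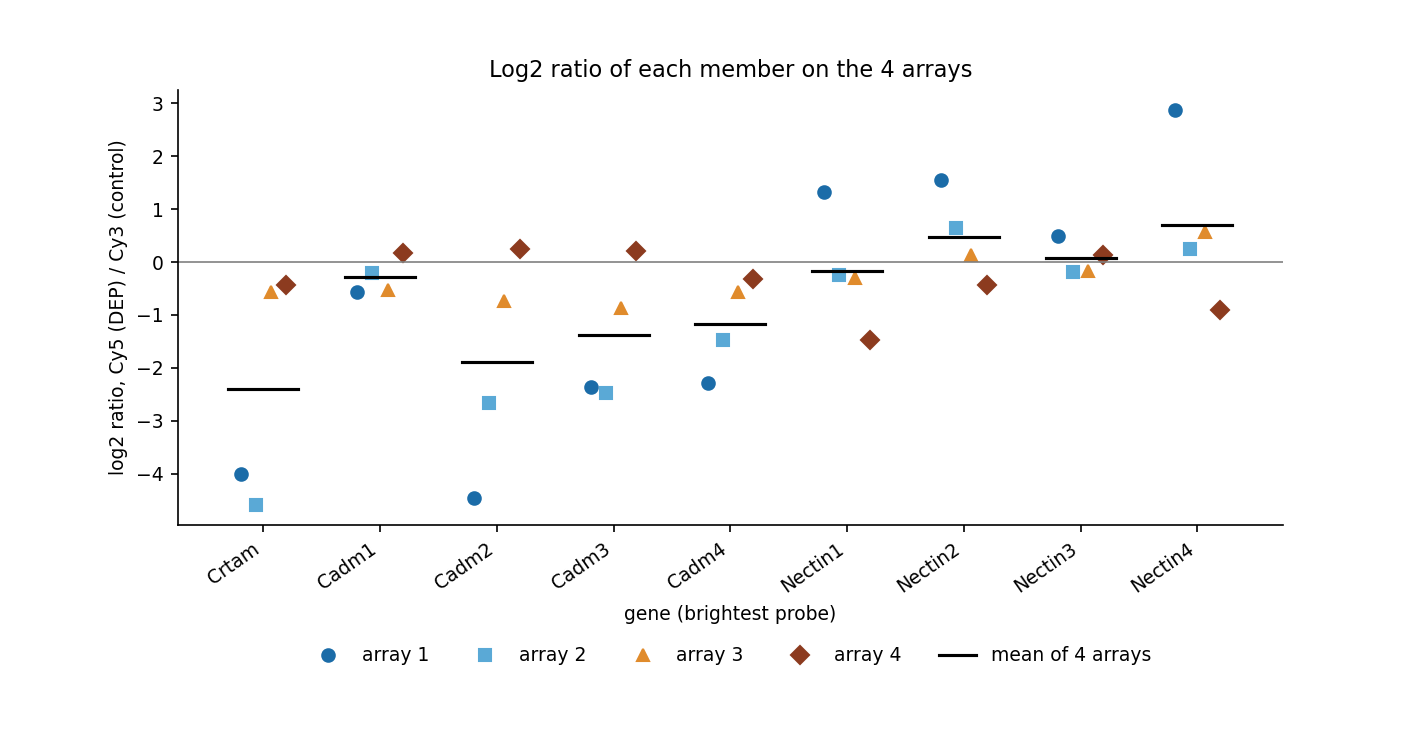
Log2 ratio of Cy5 (labelled DEP) over Cy3 (labelled control) for the brightest probe of each of the 9 genes, with 1 symbol per array and a bar at the mean of the 4 arrays. Crtam, Cadm2, Cadm3 and Cadm4 lie lowest on arrays 1 and 2, while Nectin1, Nectin2 and Nectin4 are highest on array 1 and lowest on array 4.

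Crtam, the receptor of CADM1, had log2 ratios of -4.0, -4.60, -0.57 and -0.43 on arrays 1 to 4. All 4 were below 0, and the low mean of -2.40 ± 2.21 (SD, n = 4), a 5.28-fold higher signal in Cy3, came from arrays 1 and 2. By mean ratio Crtam ranked 22 from the lowest of all genes tested, a low rank that its selection on these ratios made likely. On arrays 3 and 4 alone its mean ratio was -0.50.

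The spread of Crtam lay in the channel labelled control (Cy3). With every channel scaled to the same 75th percentile of 915, the Cy3 signal of Crtam was 1804, 2192, 153 and 60.1 on arrays 1 to 4. The Cy5 signal was 114, 90.8, 104 and 44.9 on the same arrays. The highest signal of the control channel was thus 36.5-fold over the lowest, whereas the DEP channel spanned 2.53-fold, and the ranges of the channels overlapped. On average the control signal of arrays 1 and 2 was 20.8-fold that of arrays 3 and 4. In bulk extracts, fewer cells that make a transcript and less of it per cell cannot be told apart.

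Cadm1, the ligand of CRTAM, stood near equality. Its log2 ratios were -0.56, -0.21, -0.53 and 0.17, with a mean of -0.28 ± 0.34 (SD, n = 4) and a limma adjusted p of 0.404. Its scaled control signal lay between 951 and 1143 and its scaled DEP signal between 650 and 1110. The control signal spanned 1.20-fold over the 4 arrays on which that of Crtam spanned 36.5-fold.

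Cadm3, also called SynCAM3, is made by neurons and sits on axons facing glial cells. Its brighter probe gave log2 ratios of -2.36, -2.48, -0.87 and 0.21, and the other probe gave -2.60, -2.53, -1.10 and 0.19. The probes agreed in sign on 4 of 4 arrays and were at most 0.24 apart. Both were low on arrays 1 and 2, nearer to 0 on array 3 and slightly above 0 on array 4. The mean of the brighter probe was -1.38 ± 1.29 (SD, n = 4; limma adjusted p = 0.257), a 2.60-fold higher signal in Cy3. The scaled control signal was 2347, 2387, 986 and 361, and the scaled DEP signal was 458, 431, 547 and 420. As for Crtam, the difference between arrays lay in the control channel, which spanned 6.62-fold, and the DEP channel spanned 1.30-fold.

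Cadm4, the partner of Cadm3 on the Schwann cell side of the axon contact, had 1 probe. Its log2 ratios were -2.29, -1.48, -0.56 and -0.33, all below 0, with a mean of -1.17 ± 0.90 (SD, n = 4; limma adjusted p = 0.215). Without array 1 the mean was -0.79, no longer past 2-fold. The scaled control signal was 1207, 956, 671 and 509, and the scaled DEP signal was 248, 345, 462 and 408. Every control value was above every DEP value, which held in this direction for 4.11% of the 24276 genes with 4 ratios. The channels were farthest apart on array 1, where the control value was the highest and the DEP value the lowest of the 4.

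Cadm2, a member of the family found mainly in brain, was dim. Its 3 probes were well above background in Cy5 on 2, 1 and 0 of the 4 arrays and in Cy3 on 2, 3 and 2 arrays. The brightest probe gave log2 ratios of -4.46, -2.67, -0.74 and 0.25, with a mean of -1.90 ± 2.09 (SD, n = 4; limma adjusted p = 0.298). The next probe gave -2.75, -2.74, -0.77 and -0.57 (limma adjusted p = 0.192). Both were lowest on arrays 1 and 2. On arrays 1 and 2 the Cy5 signal of the brightest probe, and on arrays 3 and 4 its Cy3 signal, did not stand well above background, so each of its ratios sets a measured signal against background. Its mean was -0.73 after normexp with loess, no longer past 2-fold, and -1.05 without array 1. The remaining probe was not well above background in Cy5 on any array, and its Cy3 signal was at least 2.35-fold higher by the rule that sets Cy5 at the lowest signal above background. Its limma adjusted p was 0.188. The scaled control signal of the brightest probe was 143, 100.2, 43.3 and 21.6, again highest on arrays 1 and 2.

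**Figure D2:**
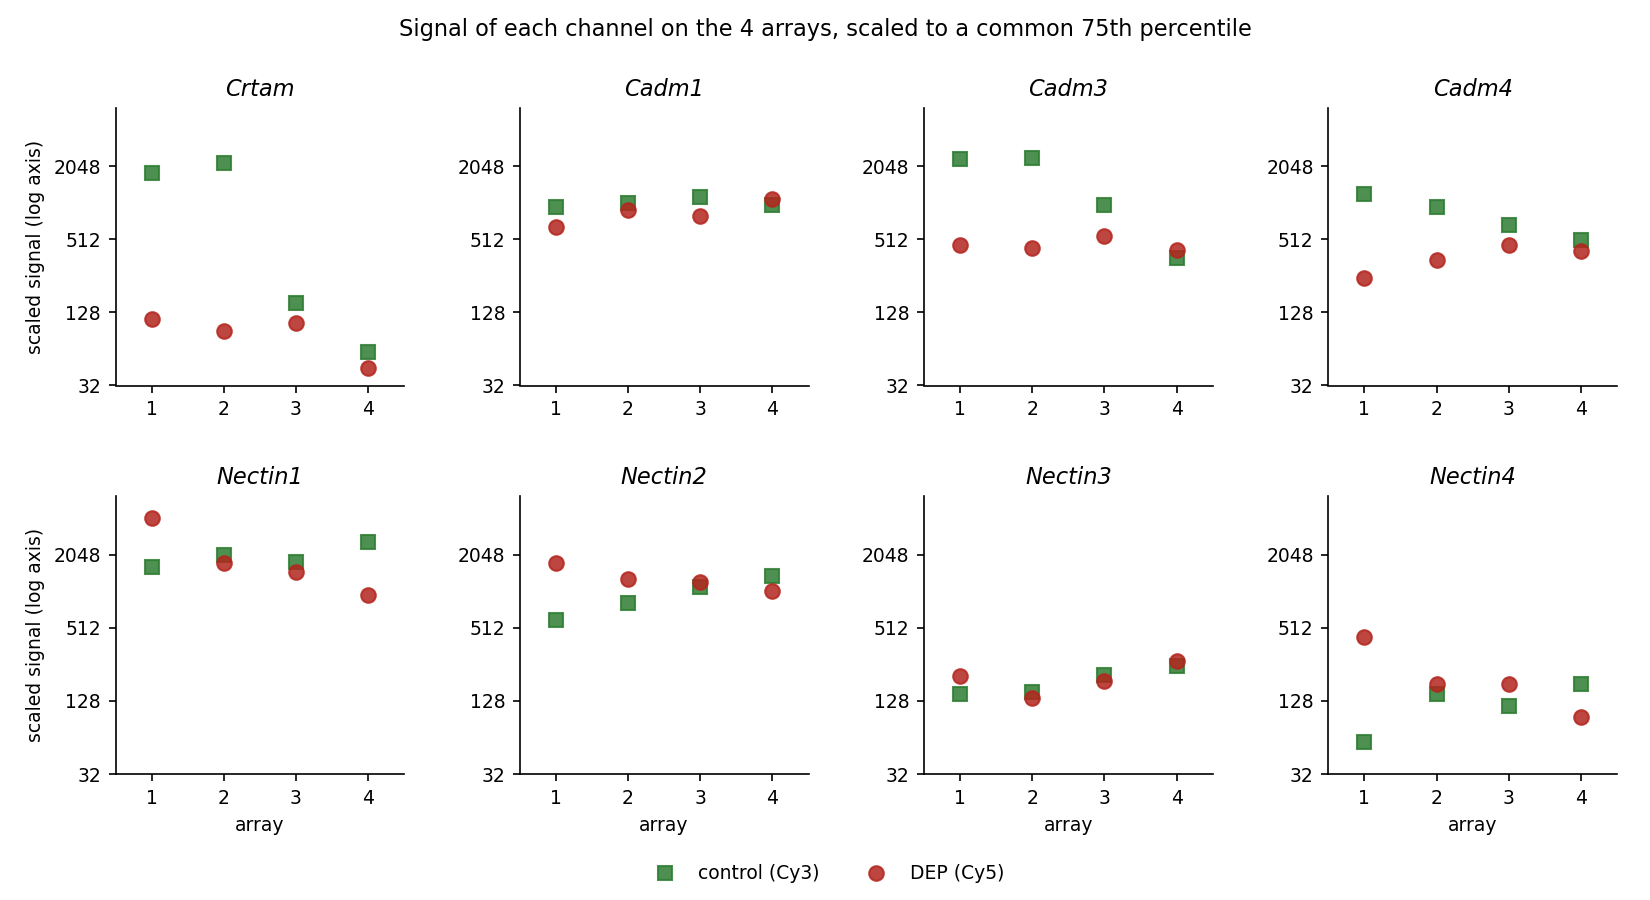
Scaled signal of the brightest probe in the control channel (Cy3, squares) and the DEP channel (Cy5, circles) on each of the 4 arrays, on a log axis shared by the panels; Cadm2 is left out because it was dim. The control signal of Crtam drops from 1804 and 2192 on arrays 1 and 2 to 153 and 60.1 on arrays 3 and 4, while the DEP signal of Nectin1 and Nectin4 is highest on array 1.

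Nectin1, an epithelial adhesion molecule that also serves as an entry receptor for herpesviruses, had log2 ratios of 1.32, -0.24, -0.30 and -1.48. Array 1 was above 0 and array 4 below, so the mean of -0.17 ± 1.15 (SD, n = 4; limma adjusted p = 0.853) hides a wide spread and became 0.26 without array 4. Here the DEP channel moved, with scaled signals of 4112, 1755, 1492 and 956, a 4.30-fold span. The control channel, at 1637, 2062, 1806 and 2641, spanned 1.61-fold.

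Nectin4, another epithelial nectin and a partner of nectin-1, had log2 ratios of 2.88, 0.25, 0.57 and -0.91. Its mean was 0.70 ± 1.59 (SD, n = 4; limma adjusted p = 0.57). The mean was -0.03 without array 1 and 1.24, past 2-fold, without array 4. The scaled DEP signal was 435, 175, 176 and 95.1, and the scaled control signal was 58.6, 145, 117 and 178. Array 1 thus held the highest DEP value and the lowest control value.

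Nectin2, which is more widely expressed and binds the leukocyte receptor CD226, had log2 ratios of 1.55, 0.64, 0.13 and -0.44. The other probe gave 1.33, 0.50, 0.04 and -0.13, with the same sign on 4 of 4 arrays and a largest gap of 0.31. The means were 0.47 ± 0.84 and 0.44 ± 0.65 (SD, n = 4 each; limma adjusted p = 0.489 and 0.427). The mean of the brighter probe was 0.11 without array 1 and 0.77 without array 4. The order of the arrays was that of Nectin1 at its ends, highest on array 1 and lowest on array 4. The scaled DEP signal of the brighter probe lay between 1032 and 1756, and its scaled control signal lay between 596 and 1385.

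Nectin3, the preferred partner of nectin-1 and nectin-2 in binding between cells, stayed close to equality. Its log2 ratios were 0.50, -0.18, -0.17 and 0.13, with a mean of 0.07 ± 0.32 (SD, n = 4; limma adjusted p = 0.828), and the sign of the mean turned without array 1, to -0.07. The scaled signals lay between 135 and 274 in the DEP channel and between 145 and 248 in the control channel. On no array did a further probe rise well above background, in Cy5 or in Cy3, and it is given no fold.

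The 5 genes whose ratios lay nearest to those of Crtam over the 4 arrays, by root mean square difference on the log2 scale among 15341 genes, were En2 (0.29), Olfr173 (0.35), Cbln1 (0.35), Rnf112 (0.37) and Ms4a19 (0.38). En2 is a homeobox factor of the developing hindbrain and cerebellum, Cbln1 is a synaptic organiser secreted by cerebellar granule cells, Rnf112 is a zinc finger protein of brain, and Olfr173 is the RefSeq name of a probe for an odorant receptor. En2 had ratios of -3.97, -4.83, -0.43 and 0.08, and Cbln1 had -4.02, -4.33, -0.57 and 0.22. The scaled control signal of Cbln1 was 7416, 8311, 450 and 102, high on the same arrays 1 and 2 as that of Crtam. Among the members measured in both channels on all arrays, Cadm3 lay nearest to Crtam with a difference of 1.39 (rank 139), followed by Cadm4 at 1.78 (rank 345). Cadm1 lay at 2.81 and Nectin4, the farthest, at 4.26. With 4 arrays this measure is a description only.

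**Figure D3:**
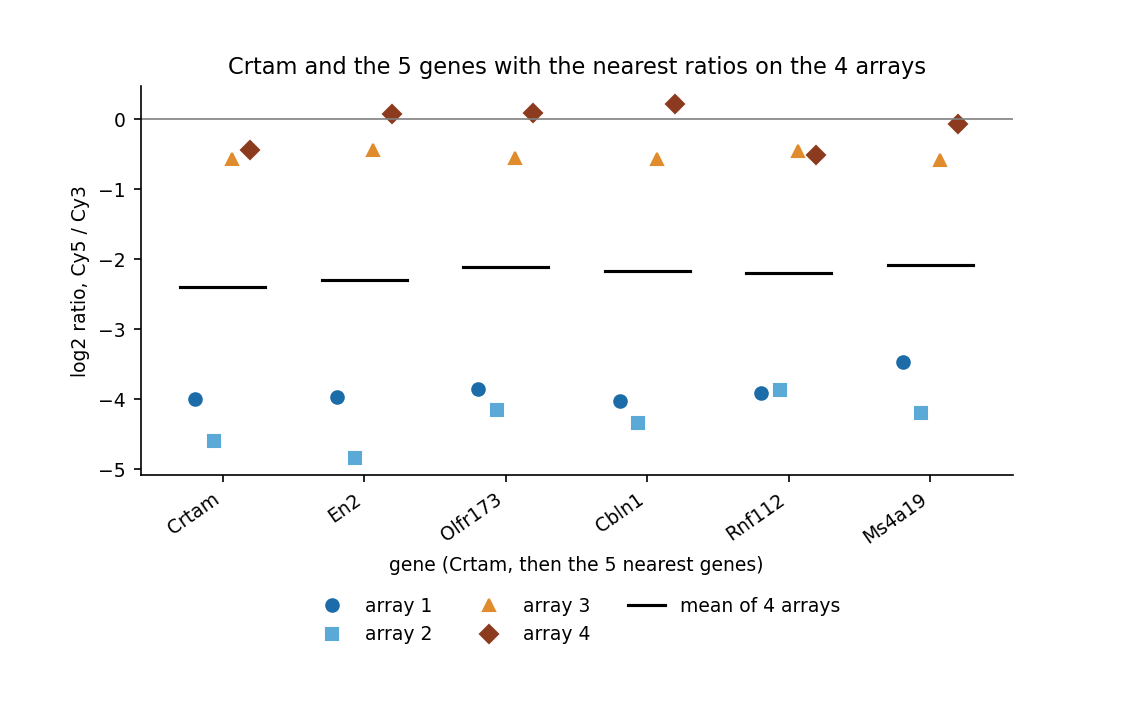
Log2 ratio (Cy5 over Cy3) of Crtam and of the 5 genes with the nearest ratios, with 1 symbol per array and a bar at the mean of the 4 arrays. Each of the 6 genes lies at -3.47 or lower on arrays 1 and 2 and within -0.58 to 0.22 on arrays 3 and 4.

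Of 27 partner genes of the same pathways, 24 could be tested, and Tigit, Pvrig and Epb41l1 could not. None had an adjusted p under 0.05 in limma (3 had an unadjusted p under 0.05, against 18.7% of all genes), 2 were 2-fold or more lower and 1 higher (4.37% and 2.37% of all genes), 14 had a mean below 0 and 10 a mean above 0, and their median was -0.14, which became 0.07 with normexp and median centring and lay between -0.03 and -0.01 when array 2, 3 or 4 was left out. On the leukocyte side, Pvr, Cd226 and Cd96 had means of 0.25, -0.17 and 0.65. Of 11 scaffold genes, 8 had a mean below 0, and none was past 2-fold. Apba1, a neuronal adaptor, had a mean of -0.96 ± 0.69 (SD, n = 4) and Epb41l3, which binds the tails of CADM proteins, had -0.74 ± 1.12 (SD, n = 4). Pard3, the polarity protein that joins nectin-based junctions, had a mean of 0.34 ± 0.89 (SD, n = 4), and afadin (Afdn) had -0.28 ± 0.81 (SD, n = 4).

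The cadherins and catenins build the adherens junction beside the nectins. Ctnnd2 and Ctnna2, the catenins of neurons, were past 2-fold with means of -1.16 ± 0.97 and -1.12 ± 1.31 (SD, n = 4 each; limma adjusted p = 0.235 and 0.319). Cdh3, P-cadherin of epithelium, was past 2-fold the other way with ratios of 3.56, 1.11, 0.83 and -0.94 and a mean of 1.14 ± 1.85 (SD, n = 4; limma adjusted p = 0.435). Cdh2, N-cadherin, had a mean of -0.49 ± 0.62 and Ctnnd1, p120-catenin, a mean of 0.40 ± 0.40 (SD, n = 4 each). Ctnnd2 and Ctnna2 were lowest on arrays 1 and 2, as Cadm3 was, and Cdh3 was highest on array 1, as Nectin4 was.

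The medians of 3 lists of brain markers, for cerebellum, neurons and astrocytes, were lowest on arrays 1 and 2, as were Crtam and 3 of the Cadm genes. In a list of cerebellar genes, 10 of 10 tested genes had a mean below 0, and the median ratio was -2.81, -3.37, -0.18 and 0.23 on arrays 1 to 4. Their summed scaled signal was 72567, 71952, 9299 and 5256 in the control channel and between 5883 and 9756 in the DEP channel. Gabra6 (3 ratios), the granule cell GABA receptor subunit, had a mean of -4.17 and Cbln1 a mean of -2.17. Cbln3 was not well above background in Cy5 on any array, and its mean Cy3 signal was at least 2.97-fold higher, although Cy3 was well above background on 2 arrays alone. Nearer to 0 were Zic2 at -0.83 and Itpr1 at -1.36. None of the 10 passed the limma adjustment.

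The list of general neuron markers had 11 of 11 genes below 0 with a median of -0.98, from Syt1 at -2.69, Elavl3 at -1.53 and Stmn2 at -1.47 to Nefl at -0.70, Snap25 at -0.67 and Nefm at -0.60. Its summed control signal was 60945, 61860, 66417 and 29596, and its summed DEP signal was 15194, 24617, 32538 and 39560, lowest on array 1. Both channels thus differed between arrays. The genes differed on array 3, where the control signal of Tubb3 (4154, 5108, 13361 and 3438) was at its highest and that of Rbfox3 (4926, 5194, 1132 and 733) was far below arrays 1 and 2. The astrocyte list had 6 of 7 genes below 0 with a median of -1.12, from Slc1a2 at -1.61, Aldoc at -1.59 and Slc1a3 at -1.14 to Aqp4 at -0.74, Aldh1l1 at -0.13 and Gja1 at 0.06, and summed signals of 125350, 125849, 20247 and 10136 in the control channel and between 10445 and 22630 in the DEP channel. Aldoc alone made up most of the astrocyte sum in each channel, with 114421, 115847, 14436 and 6286 in the control channel, so these sums mainly show 1 gene. The list of Schwann cell and myelin genes was divided, 4 below and 4 above 0, with a median of 0.03. Their part in the ratios of Crtam and the Cadm genes was not tested.

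Lists of markers of the leukocytes in which CRTAM is best known had medians near 0, with single genes that stood apart. T cell markers had a median ratio of 0.06, with summed scaled signals between 5153 and 6325 in the DEP channel and between 5346 and 6388 in the control channel, and Cd8a and Cd247 were not above background. The list of NK and cytotoxic cell genes had a median of 0.14 and summed signals between 4531 and 7313 in the DEP channel and between 4209 and 6768 in the control channel and Klrk1 was not above background. Within it, Eomes, a transcription factor of NK and CD8+ T cells that is also made in some neurons, had ratios of -2.89, -1.32, -0.29 and -0.14, lowest on arrays 1 and 2 as for Crtam, with a mean of -1.16 (limma adjusted p = 0.299). Its scaled control signal was 352, 183, 77.1 and 74.0. Tbx21, the related factor T-bet, was above 0 on every array with a mean of 0.67 (limma adjusted p = 0.138). For the cells that carry CADM1, type 1 dendritic cell genes had a median of -0.11, with Xcr1 not above background, and mast cell genes had a median of 0.42, with Ms4a2 not above background. No gene of these lists passed the limma adjustment.

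The list of epithelial markers had a median ratio of 1.25, 0.31, -0.32 and -0.64 on arrays 1 to 4, beside 1.44, 0.04, -0.02 and -0.68 for the 4 nectins. The list was not uniform, since Krt8, Krt18, Krt19 and Cldn7 were below 0 on array 1, at -0.26, -0.47, -0.22 and -0.53. The summed scaled signal of the list was 117544, 54678, 42676 and 32518 in the DEP channel and 25492, 41547, 44146 and 66972 in the control channel. Krt5 and Krt14, the basal keratins, made up most of the sum of the DEP channel on array 1, with 66514 and 44595. Over the 4 arrays 6 of 10 genes had a mean above 0 and 4 below, with Krt14 at 0.66, Epcam at 0.47 and Elf3 at 0.41 at the upper end and Cldn7 at -0.54, Krt18 at -0.48 and Krt8 at -0.39 at the lower. The part of epithelium in the nectin ratios was not tested.

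**Figure D4:**
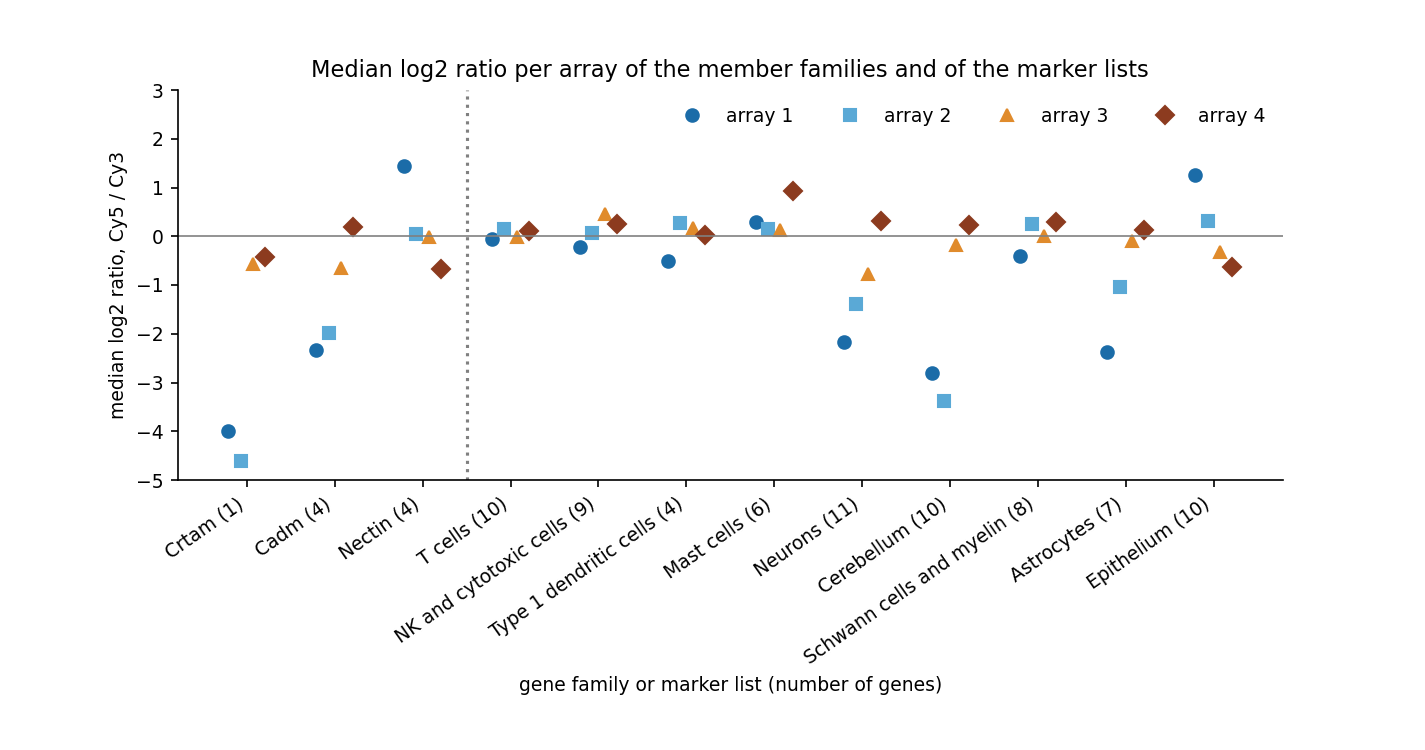
Median log2 ratio (Cy5 over Cy3) on each array for Crtam, the Cadm and nectin genes (left of the dotted line) and for the 9 marker lists, with the number of genes in brackets. The cerebellar list reaches -2.81 and -3.37 on arrays 1 and 2, where Crtam is at -4.0 and -4.60, and the epithelial list and the nectins are highest on array 1.

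Over all probes, the ratios of arrays 1 and 2 correlated at r = 0.61, those of arrays 1 and 4 at r = -0.23 and the other pairs at 0.12 to 0.38. An exact sign-flip test of 4 ratios cannot go below p = 0.125. Without array 4, Crtam and the 4 Cadm genes (4 of the 8 genes other than Crtam) were lower on every remaining array, against 20.1% of the 24644 genes with those ratios. Cadm1, Cadm2 and Cadm3 were above 0 only on array 4, so they are counted because that array was dropped. Of the 8 genes, Cadm4 and Nectin1 were lower on every remaining array without array 1, and only Cadm4 without array 2 or without array 3. On arrays 3 and 4 alone 0 of the 9 were 2-fold or more lower, against 3.3% of all genes with both ratios.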

How the data were processed

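RNA of ear tissue was measured on 4 two-colour arrays of 1 slide and 1 scan. Spots were read by the authors in Feature Extraction 10.10.1.1. The deposited intensity values are processed signals, corrected for background and dye, and the deposited ratios are log10 of Cy5 signal over Cy3 signal. These ratios were converted to log2. Control and outlier-flagged spots and those lacking a ratio were dropped, and replicate spots were averaged by probe. Groups follow the source names of the labels, which list both treatments under 1 channel elsewhere. Probes were named through RefSeq accessions (assembly GRCm38.p6, used for names; 27655 of 39429 probes matched), with the brightest probe standing for each gene. An intercept was fitted to 3 or 4 ratios of each of 31577 probes with lmFit and eBayes in limma 3.58.1 (R 4.3.3), with Benjamini-Hochberg adjustment and a threshold of 0.05; this fit was also tested on simulated data. For comparison between arrays, signals were scaled to a common 75th percentile. Between 59.2% and 68.9% of probes were well above background, and the number of arrays limits the precision. The members, partner genes and marker lists were chosen with earlier results of these data known. Named were all members, up to 8 partner genes measured in both channels with the largest absolute mean ratios (Afdn and the leukocyte genes were added after their values were seen), the 5 genes nearest to Crtam, and the 3 highest and 3 lowest genes of lists set beside a result (Eomes, Tbx21, Tubb3, Rbfox3, Krt5 and Krt19 were added after their values were seen). The alternatives were normexp on the median spot signals (mean signals were not used here) with an offset of 50, and loess or median centring, the deposited ratio table, filters on dim spots, flagged spots kept, a trend or no moderation, the mean of the probes, and each array left out. Values on arrays 3 and 4 alone and signals without scaling were added after seeing the data. One marker that this rule names is not reported here. 0 columns were left without a sample.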

Additional observations from a re-analysis of the deposited data

Results flagged for a closer look

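Of 42 sets of 4 array values tested (the ratio and the log2 scaled signal of each channel for 14 probes), 2 had an array far from the other 3, and chance would give about 1 in 20. Both belong to dim probes of Cadm2. In the control channel of the probe A_55_P2142928, array 4 had a log2 scaled signal of 4.46, and the nearest array had 6.06. In the DEP channel of the probe A_55_P2282376, which was not well above background there, array 2 had a log2 scaled signal of 2.20, and the nearest array had 3.84.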

How the results depend on the processing

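The mean ratio of Crtam lay between -3.06 and -0.50 under the 14 alternatives computed for it, and between -3.06 and -1.67 when each array was left out. Crtam was selected for a low ratio on all 4 arrays, so leaving arrays out could not turn the sign of its mean. The filters, the deposited ratio table and the trend left its mean at -2.4. With normexp the mean was -1.95 after loess and -1.9 after median centring. The means of Cadm2, Cadm3, Cadm4 and Nectin2 kept their sign under the alternatives computed for them, 12 for Cadm2 and 14 for each of the others. That of Cadm2 ranged from -2.62 to -0.73 and that of Nectin2 from 0.11 to 0.77. Arrays 3 and 4 alone were not among these alternatives, and there Nectin2 had ratios of 0.13 and -0.44. Arrays 3 and 4 alone were not tested, and the filters for signal well above background in 1 or both channels left 7 members, without Cadm2. None of the 8 members tested (Crtam was not) had an adjusted p under 0.05 under any alternative in which it was tested, although normexp with median centring called 2988 genes. That setting moved the median of all genes from 0.03 to 0.11, turned the members' median from -0.28 to 0.01 and the partners' median from -0.14 to 0.07, turned Cadm1 to 0.01 and Nectin1 to 0.17, and left 1 member, Crtam, past 2-fold in place of 4; the cause was not tested. With each array left out, the members' median lay between -0.67 (without array 1) and -0.20, and 3 to 5 members, Crtam always among them, were past 2-fold in either direction. The 5 without array 4 included Nectin4, which was higher in Cy5, at 1.24. Over all genes, 1552 of 26201 were past 2-fold without array 1 and 2720 of 26576 without array 4. Between 2 and 5 members were lower on every remaining array, with 5 without array 4. The mean of Nectin1 lay between -0.67 and 0.26, that of Nectin3 between -0.07 and 0.15 and that of Nectin4 between -0.03 and 1.24. Arrays 3 and 4 alone, chosen after seeing the data, gave 0 members past 2-fold. Without scaling between arrays, the control signal of Crtam spanned 48.1-fold. Dim signal limits Cadm2, and 4 arrays limit every test. The ratios already pair the extracts that share an array, and the labels give no further pairing.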
